A study of Homo sapiens with 3 samples.

Results

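Potassium channel subunit genes were examined in H82R cells, from the established human small cell lung cancer line H82, and were taken as every gene symbol of the count table made of KCN, further letters and a closing number. The rule found 95 genes among 27574. Read counts per gene were available for 3 RNA sequencing libraries of total RNA, named replicates 1, 2 and 3 after their titles, with 25013265, 42610181 and 23868201 counts. All 3 carry the same labels: cell line H82 from the ATCC, lung, and treatment with etoposide plus cisplatin, a topoisomerase poison and a DNA crosslinker. Cells were kept in RPMI medium with fetal bovine serum, and RNA was taken up with TRIzol. The labels name no untreated or parental sample, dose or time, so the values are levels in these cells and their spread between libraries, not effects of the drugs. No label ties the replicates to cultures grown apart, so the p-values cover the spread among these 3 libraries alone, and that spread may be technical. All 6 neuroendocrine markers checked (SYP, CHGA, NCAM1, INSM1, UCHL1 and NEUROD1) were detected, with summed levels of 1056 to 1114 CPM, while 12 markers of fibroblasts, immune, endothelial and muscle cells summed to 0.403 to 10.5 CPM for each cell type, with CD3E the highest at 7.62 CPM, and no marker was at 0 in every library.

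Potassium channels let potassium ions cross the membrane, mostly outward, and so set the resting potential, end action potentials and shape firing. The pore is a tetramer of subunits of the voltage-gated, calcium-activated or inward rectifier kind, or from a pair of tandem-pore subunits, and auxiliary subunits change its gating or its delivery to the membrane. Neuroendocrine lung cancer cells are known to be electrically excitable, with voltage-gated currents like those of neurons. Here the genes were grouped by role into Kv pores (KCNA to KCND), the KCNQ and KCNH pores, electrically silent Kv subunits (KCNF, KCNG, KCNS and KCNV), Kv auxiliary subunits (KCNAB, KCNE and KCNIP), calcium- and sodium-activated channels with their beta subunits (KCNMA, KCNMB, KCNN, KCNT and KCNU), inward rectifiers (KCNJ) and tandem-pore channels (KCNK).

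What the pore-forming members share beyond their names is the selectivity filter, the short stretch of the pore loop that coordinates potassium. In the longest coding sequence of each gene in GENCODE 29, a script looked in frame, on the coding strand, for 5 codons: ACN, TCN, AGT or AGC, then any codon, then GGN, then TAN or TTN, then GGN. All 79 pore-forming members held a match and none of the 16 auxiliary members did, against 3.41% of the 19717 coding sequences of all protein-coding genes. The codon pattern was written to describe this filter, so the matches are no independent result. The 19717 coding sequences include those of the members. Of the 15 KCNK genes, whose subunits carry a pair of pore loops, 11 held 2 matches. Of the matches nearest the start codon, 63 had TAN as the fourth codon, which encodes tyrosine inside a coding sequence, and 16 had TTN, which encodes phenylalanine or leucine. These 16 included all 8 KCNH genes and, among the KCNJ genes, KCNJ11 and KCNJ8, which were among the most highly expressed members described below. To show how the filter codons differ between families, those of KCNMA1, the BK channel pore gene, and of 9 members high within their group are shown with 18 coding bases before and 6 after, 5′ to 3′, with the 5 matched codons in capitals.
KCNH6: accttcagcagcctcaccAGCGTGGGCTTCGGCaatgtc
KCNH3: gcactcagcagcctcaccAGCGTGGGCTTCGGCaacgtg
KCNH5: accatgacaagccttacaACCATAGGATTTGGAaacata
KCNH2: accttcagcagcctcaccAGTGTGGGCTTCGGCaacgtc
KCNA4: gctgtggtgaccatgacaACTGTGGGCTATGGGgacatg
KCNJ11: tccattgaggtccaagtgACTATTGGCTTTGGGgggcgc
KCNJ8: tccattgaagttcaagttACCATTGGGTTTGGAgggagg
KCNT2: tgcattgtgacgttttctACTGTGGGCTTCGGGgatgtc
KCNMA1: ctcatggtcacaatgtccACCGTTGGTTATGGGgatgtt
KCNK5: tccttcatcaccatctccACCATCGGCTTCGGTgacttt
On GRCh38 these stretches lie at KCNH6 chr17:63535975-63536013 (plus strand, exon 6 of 14), KCNH3 chr12:49549080-49549118 (plus strand, exon 8 of 15), KCNH5 chr14:62950188-62950226 (minus strand, exon 7 of 11), KCNH2 chr7:150951503-150951541 (minus strand, exon 7 of 15), KCNA4 chr11:30011089-30011127 (minus strand, exon 2 of 2), KCNJ11 chr11:17387684-17387722 (minus strand, exon 1 of 1), KCNJ8 chr12:21766560-21766598 (minus strand, exon 3 of 3), KCNT2 chr1:196429652-196429690 (minus strand, exon 9 of 28), KCNMA1 chr10:77110230-77110268 (minus strand, exon 8 of 30) and KCNK5 chr6:39194176-39194214 (minus strand, exon 4 of 5), where the exon numbers are those of the transcript used. For KCNK5 the match in the second pore loop is shown, with TTC as the fourth codon. The first KCNK5 match, which is the one counted above, has TAT there, so its pore loops differ. All are coding exon sequence.

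Of the 95 members, 53 were detected, meaning at least 10 counts in every library. By the same rule 53.0% of all genes and 69.8% of protein-coding genes were detected, and every member is protein-coding. Levels of different genes were compared as CPM per kb, the count relative to the effective library size (CPM) divided by the kilobases of annotated exon. Below, 3 values in a row belong to replicates 1, 2 and 3 in that order, and means are given ± SD (n = 3). Whether a gene lay above or below the median detected gene on this scale was tested with limma's one-sample moderated test, adjusted over the 13530 detected genes with an exon length. Of the 53 detected members 12 lay above the median gene, 40 below and 1 was not distinguished from it, while 45.3% and 45.1% of all tested genes lay above and below. These calls depend on which genes set the median: among genes with at least 1 CPM in every library 7 members lay above it, and KCNAB2, KCNAB3, KCNB2, KCNH2 and KCNK5 were no longer called. Among genes with any count 16 lay above and 61 of 84 below, with KCNC1, KCNS3, KCNT2 and KCNA4 then called above, while KCNA3, KCNC4, KCNH4, KCNIP2, KCNK1, KCNK2 and KCNK12 were no longer called below. The median distance from the median gene was -1.92 on the log2 scale over the detected members. The 95 genes summed to 178, 171 and 162 CPM per kb, and the 10 highest held 58.3, 57.7 and 56.3% of that sum.

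**Figure D1:**
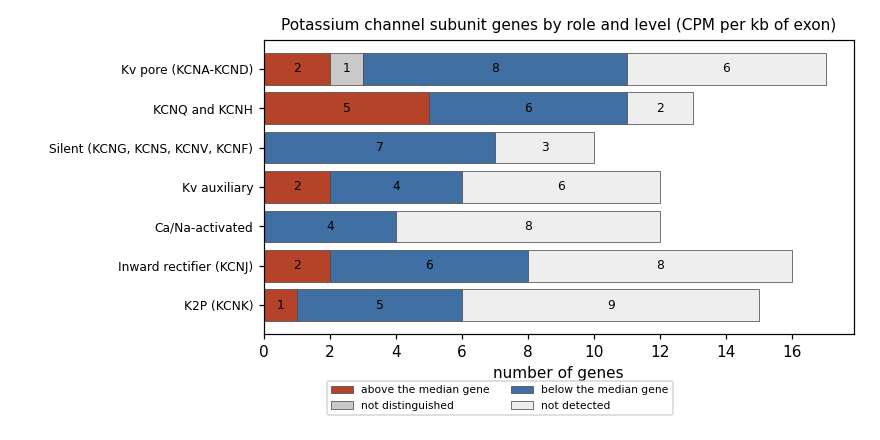
Number of potassium channel subunit genes in each role group (vertical axis) that lay above the median detected gene, were not distinguished from it, lay below it, or were not detected (horizontal axis, number of genes). The KCNQ and KCNH group holds 5 of the 12 genes above the median gene, and the silent and the calcium- and sodium-activated groups hold none.

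All 8 genes of the KCNH family were detected, 4 of them above and 4 below the median gene, and together they held 31.0, 31.0 and 30.3% of the summed CPM per kb of all members. KCNH6, an ERG-type voltage-gated channel gene related to the cardiac hERG gene, was the highest member in every library, at 23.3, 20.8 and 20.2 CPM per kb. It was highest in replicate 1, and its lowest library still exceeded the highest library of every other member. It lay 1.95 ± 0.074 (SE) above the median gene on the log2 scale (limma, adjusted p = 5.29e-08) and higher than 85.3% of detected genes, on 2435, 3735 and 2043 counts. KCNH6 lies on chromosome 17 from 63523334 to 63548977 (GRCh38).

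KCNH3, an ELK-type channel gene expressed mainly in brain, followed at 10.4, 12.6 and 9.05 CPM per kb, highest in replicate 2, and lay 0.93 ± 0.11 (SE) above the median gene (limma, adjusted p = 4.02e-05). KCNH5, an EAG-type channel gene, had more counts than KCNH6 (2731, 4383 and 2330) but a longer annotated exon length, and stood at 8.92, 8.32 and 7.89 CPM per kb, 0.59 ± 0.071 (SE) above the median gene (adjusted p = 6.02e-05). KCNH2, which encodes hERG, the channel of cardiac repolarisation, reached 7.66, 6.73 and 7.09 CPM per kb (0.37 ± 0.08 (SE) above, adjusted p = 0.00247). The 3 libraries of KCNH5 and of KCNH2 lay within 1.13 and 1.14 times of each other. The ratio of KCNH2 to KCNH6 per kb was 0.329 (0.306 to 0.353) in replicate 1, 0.324 (0.306 to 0.343) in replicate 2 and 0.350 (0.324 to 0.378) in replicate 3, with exact 95% binomial intervals, so the order of these ERG-type genes was the same in all 3 libraries.

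The remaining KCNH genes lay below the median gene. KCNH4, of the ELK type, stood at 2.51 ± 0.369 CPM per kb, KCNH8, also ELK, at 1.08 ± 0.188 CPM per kb, and KCNH1, the EAG gene often studied in tumours, at 0.856 ± 0.101 CPM per kb. KCNH7, the third ERG gene, was the lowest at 0.291 ± 0.0829 CPM per kb on 47, 46 and 33 counts. All 3 ERG genes were thus counted in these cells at levels that spanned a wide range, from the highest member to one of the low ones. Of the annotated exon bases of KCNH1, 36.9% lie opposite another gene's exons and 16.1% overlap genes on its own strand, and since no source used here says whether strand was used in counting, its count is uncertain.

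The KCNQ genes encode the channels of the M current, a slow potassium current that restrains firing in neurons. KCNQ5 stood at 9.51, 8.56 and 9.83 CPM per kb on 1789, 2770 and 1784 counts, and lay 0.74 ± 0.074 (SE) above the median gene (limma, adjusted p = 1.72e-05). Its 3 libraries were close together, with replicate 2 the lowest. KCNQ3 had 45, 47 and 16 counts and stood at 0.0943 ± 0.0457 CPM per kb. KCNQ1, the cardiac and epithelial member, had 0, 1 and 3 counts. KCNQ5 was thus far above KCNQ3 in every library, and KCNQ3 lay below the median gene.

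**Figure D2:**
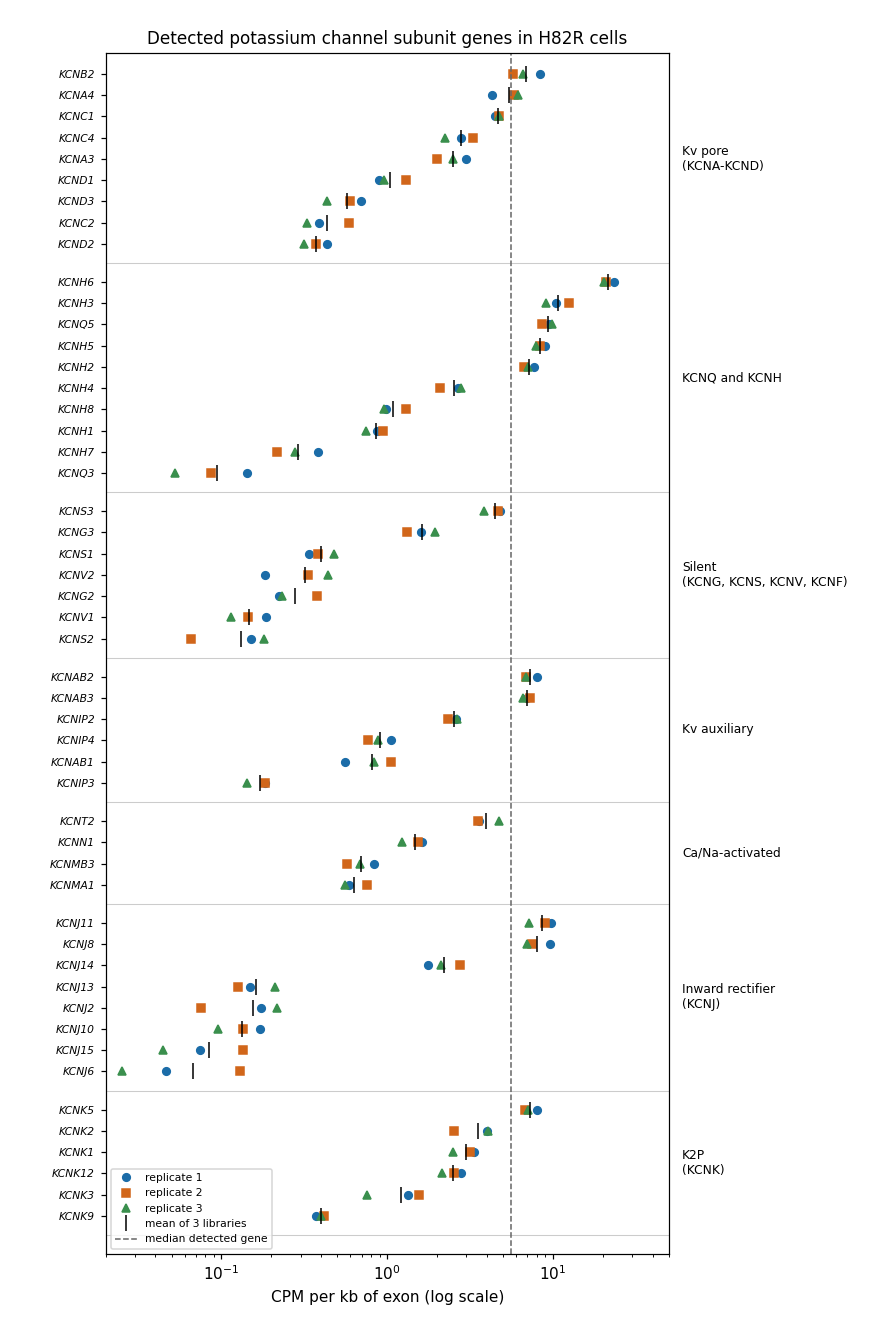
CPM per kb of exon (horizontal axis, log scale) of 50 detected potassium channel subunit genes, grouped by role and ordered by mean (vertical axis). Symbols are the 3 libraries, vertical ticks their mean and the dashed line the median detected gene; KCNH6 lies farthest to the right in all 3 libraries, and most genes lie left of the line.

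Among the 17 Kv pore genes 11 were detected: 2 lay above the median gene, 8 below and 1 was not distinguished from it. KCNB2, a delayed rectifier gene, stood at 8.38, 5.74 and 6.61 CPM per kb, highest in replicate 1, and lay above the median gene by 0.30 ± 0.12 (SE) (adjusted p = 0.0386). That call was lost without replicate 1 (0.20, adjusted p = 0.202), and the sign turned without division by length (-0.037, adjusted p = 0.769) and with the length of the longest transcript (-0.15, adjusted p = 0.237).

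The KCNC genes encode fast channels that let neurons fire at high rates, and KCNC1, KCNC4 and KCNC2 lay below the median gene. KCNC1 stood at 4.50, 4.74 and 4.72 CPM per kb, with no spread beyond counting error, and KCNC4 at 2.78, 3.30 and 2.24 CPM per kb, lowest in replicate 3. KCNC4 was 0.619, 0.697 and 0.473 times KCNC1 per kb and, as plain counts, 1.08, 1.21 and 0.822 times. KCNC2 was at 0.433 ± 0.135 CPM per kb, but 35.5% of its exon bases lie opposite another gene. The place of KCNC1 depends on how its length is taken: its distance of -0.25 ± 0.071 (SE) (limma, adjusted p = 0.00910) became 0.15 (adjusted p = 0.0831) with the length of its longest transcript and lost the call without replicate 1 (adjusted p = 0.127) or replicate 3 (adjusted p = 0.0969). Without division by length KCNC1 lay 1.42 (adjusted p = 2.43e-07) and KCNC4 1.45 (adjusted p = 2.83e-06) above the median gene.

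Of the 8 KCNA genes, the Shaker-type family, 2 were detected. KCNA4, which encodes a rapidly inactivating channel, stood at 4.30, 5.86 and 6.15 CPM per kb, low in replicate 1, and could not be told from the median gene (-0.044 ± 0.12 (SE); limma, adjusted p = 0.739); with the length of its longest transcript it was called below (-0.49, adjusted p = 0.00534). KCNA3, best known from T cells, stood at 2.98, 1.99 and 2.49 CPM per kb. KCNA1, KCNA6 and KCNA10 had no count in any library, and KCNA2, KCNA5 and KCNA7 had at most 4, 1 and 14 counts. In the annotation all exon bases of KCNA6 also belong to GALNT8 on the same strand, which had 145, 281 and 156 counts, so a count of 0 for KCNA6 is uncertain. The KCND genes, which encode the fast transient current of dendrites, were all detected and all below the median gene: KCND1 at 1.04 ± 0.215 CPM per kb, KCND3 at 0.576 ± 0.132 CPM per kb and KCND2 at 0.374 ± 0.0597 CPM per kb. KCND3 was 1.60, 1.61 and 1.38 times KCND2 per kb, with an interval that included 1 in replicate 3.

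Electrically silent subunits form no channel alone and alter KCNB channels when they join them. Of 10 such genes 7 were detected and all 7 lay below the median gene. KCNS3 was the highest at 4.82, 4.69 and 3.84 CPM per kb, and its distance of -0.32 ± 0.12 (SE) (limma, adjusted p = 0.0297) lost the call without replicate 1 (adjusted p = 0.0848) or replicate 3 (adjusted p = 0.316). KCNG3 followed at 1.60, 1.32 and 1.94 CPM per kb. KCNS1 (0.399 ± 0.0721 CPM per kb), KCNV2 (0.318 ± 0.128 CPM per kb), KCNG2 (0.278 ± 0.0874 CPM per kb), KCNV1 (0.147 ± 0.0356 CPM per kb) and KCNS2 (0.132 ± 0.0592 CPM per kb) were low. KCNF1, KCNG1 and KCNG4 had at most 8, 2 and 7 counts in any library. The silent subunits counted in these cells thus had KCNS3 and KCNG3 at their head, both below the median gene.

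Of 12 Kv auxiliary genes 6 were detected, 2 above and 4 below the median gene. The highest were KCNAB2 and KCNAB3, which encode cytoplasmic beta subunits that bind KCNA channels. KCNAB2 stood at 7.98, 6.87 and 6.88 CPM per kb and KCNAB3 at 7.01, 7.31 and 6.57 CPM per kb, and both lay above the median gene, by 0.38 ± 0.078 (SE) and 0.33 ± 0.086 (SE) (limma, adjusted p = 0.00164 and 0.00653). Their ratio, KCNAB2 over KCNAB3, was 1.14, 0.940 and 1.05 per kb, so their order differed between libraries, and the 95% interval excluded 1 in replicate 1 only. KCNAB1 was lower, at 0.558, 1.06 and 0.828 CPM per kb and highest in replicate 2, and KCNAB2 was 14.3, 6.49 and 8.31 times KCNAB1. The calcium-binding KCNIP proteins are partners of KCND channels, and 3 of their 4 genes were detected below the median gene. KCNIP2 stood at 2.53 ± 0.180 CPM per kb and KCNIP4 at 0.901 ± 0.141 CPM per kb. KCNIP3, whose product also acts as a transcriptional repressor, stood at 0.171 ± 0.0237 CPM per kb. KCNIP1 had no count, and the exact 95% binomial intervals of its ratio to KCNIP4 per kb had upper ends of 0.0429, 0.0339 and 0.0531. None of the 5 KCNE genes, small membrane proteins that modify KCNQ and KCNH channels, was detected, though each had some counts: KCNE1 11, 23 and 9, KCNE2 3, 19 and 2, KCNE3 9, 42 and 20, KCNE4 8, 11 and 6 and KCNE5 2, 10 and 3. For KCNE2, KCNE3 and KCNIP2, 34.2%, 16.6% and 12.2% of exon bases lie opposite another gene, and their counts are uncertain.

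Calcium- and sodium-activated channels couple ion entry to membrane potential. Of these 12 genes 4 were detected and all lay below the median gene. KCNT2, a sodium-activated channel gene, was the highest at 3.58, 3.54 and 4.73 CPM per kb, high in replicate 3, and lay -0.50 ± 0.11 (SE) from the median gene (limma, adjusted p = 0.00221); without division by length it was not distinguished from it (adjusted p = 0.229). Its paralog KCNT1 had 1, 4 and 0 counts. KCNN1, a small-conductance channel gene, stood at 1.63, 1.53 and 1.23 CPM per kb and was 45.9, 27.9 and 16.7 times KCNN4 per kb, on 3, 8 and 6 counts of KCNN4. KCNN2 and KCNN3 had 10, 28 and 6 and 1, 3 and 0 counts, and KCNU1 had at most 7.

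KCNMA1, the pore gene of the large-conductance BK channel, had 521, 1151 and 472 counts, or 0.588, 0.756 and 0.553 CPM per kb over the 35644 annotated exon bases of its many transcripts, the longest exon length among the members. Without division by length it was not distinguished from the median gene (adjusted p = 0.200). Of its beta subunit genes only KCNMB3 was detected, at 0.834, 0.576 and 0.688 CPM per kb, which put KCNMA1 at 0.706, 1.31 and 0.803 times KCNMB3, with the order reversed in replicate 2. That order rests on the exon lengths: as plain counts KCNMA1 was 2.80, 5.21 and 3.19 times KCNMB3, higher in every library. However, 37.9% of the exon bases of KCNMB3 lie opposite exons of PIK3CA, which had 1619, 2409 and 1659 counts, and its count is uncertain. KCNMB4, the beta subunit of neurons, had 19, 20 and 4 counts, KCNMB2 2, 6 and 3 and KCNMB1, the smooth muscle subunit, none. The count of KCNMB2 is uncertain too, since 32.1% of its exon bases overlap another gene on its own strand.

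The inward rectifiers fell into a high pair and a low remainder. KCNJ11, the pore gene of the ATP-sensitive potassium channel of endocrine cells and neurons, stood at 9.67, 8.92 and 7.19 CPM per kb, lowest in replicate 3, and lay 0.62 ± 0.11 (SE) above the median gene (limma, adjusted p = 0.000637). KCNJ8, the corresponding pore gene of blood vessels, stood at 9.58, 7.43 and 6.99 CPM per kb, highest in replicate 1, and lay 0.52 ± 0.12 (SE) above it (adjusted p = 0.00288). Of the exon bases of KCNJ8, 10.8% lie opposite another gene, so its count is uncertain. The ratio of KCNJ11 to KCNJ8 was 1.01 (0.906 to 1.13) in replicate 1, 1.20 (1.10 to 1.31) in replicate 2 and 1.03 (0.904 to 1.17) in replicate 3, and the interval excluded 1 in replicate 2 only. Without division by length KCNJ8 was called below the median gene (-0.35, adjusted p = 0.0194) and KCNJ11 was not distinguished from it (adjusted p = 0.292); with the length of the longest transcript the call of KCNJ8 was also lost (adjusted p = 0.353). KCNJ11 lies on chromosome 11 from 17385859 to 17389331 and KCNJ8 on chromosome 12 from 21764955 to 21775581. The sulfonylurea receptors that complete these channels were counted too: ABCC8, the usual partner of KCNJ11, stood at 0.921, 0.744 and 0.902 CPM per kb and ABCC9 at 2.58, 2.27 and 2.19, so KCNJ11 was 10.5, 12 and 7.97 times ABCC8 per kb. As plain counts KCNJ11 was 2.67, 3.05 and 2.03 times ABCC8, whose annotated exon length is 12588 bases against 3204 for KCNJ11.

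Of the other 14 inward rectifier genes 6 were detected and all lay below the median gene. KCNJ14 stood at 1.77, 2.76 and 2.12 CPM per kb, highest in replicate 2, and 10.9% of its exon bases overlap genes of its own strand, GRWD1 among them. Since 16.5% of its exon bases also lie opposite another gene, the count of KCNJ14 is uncertain. KCNJ2, the classical strong rectifier gene, had 24, 18 and 29 counts, KCNJ13 11, 16 and 15, KCNJ10, the glial channel gene, 28, 38 and 15 and KCNJ15 19, 60 and 11. KCNJ6, a G protein-gated channel gene of neurons, was the lowest detected member on this scale at 0.0464, 0.130 and 0.0251 CPM per kb. That place rests on its 19965 annotated exon bases: without division by length its mean was 1.34 CPM, against 0.481 for KCNJ13. KCNJ3, the partner of KCNJ6, had 9, 23 and 8 counts. The ratio of KCNJ6 to KCNJ3 per kb was 0.649, 1.22 and 0.381, with intervals that included 1 in every library. As plain counts it was 2.56, 4.83 and 1.5. KCNJ9, KCNJ5, KCNJ4 and KCNJ16 had at most 13, 2, 10 and 3 counts, KCNJ12 had 1 count in all, and KCNJ1 and KCNJ18 none; KCNJ12 and KCNJ18 are near-identical copies, so the counts of both are uncertain. For KCNJ13, 24.3% of exon bases lie opposite GIGYF2, and for KCNJ4 12.6% lie opposite another gene, so both counts are uncertain.

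Tandem-pore channels carry the background current that holds the resting potential. Of 15 genes 6 were detected, 1 above and 5 below the median gene. KCNK5, a channel gene that responds to alkaline pH, was the highest at 8.06, 6.79 and 7.04 CPM per kb and lay 0.39 ± 0.093 (SE) above the median gene (limma, adjusted p = 0.00361), a call lost with the length of the longest transcript (-0.062, adjusted p = 0.534) and without division by length (adjusted p = 0.225). KCNK2, which responds to membrane stretch, stood at 4.01, 2.53 and 4.06 CPM per kb, low in replicate 2. KCNK1 followed at 3.34, 3.15 and 2.51 CPM per kb, 128, 208 and 46.3 times its relative KCNK6 on 4, 4 and 8 counts of KCNK6, and KCNK12 at 2.78, 2.52 and 2.15 CPM per kb. The acid-sensitive channel genes KCNK3 and KCNK9 stood at 1.34, 1.55 and 0.751 and 0.374, 0.417 and 0.400 CPM per kb, and KCNK3 was 3.58, 3.70 and 1.88 times KCNK9, with replicate 3 low through KCNK3. KCNK10, KCNK16 and KCNK18 had no count, so KCNK2 was at least 274, 298 and 268 times higher per kb than its relative KCNK10, with 3 counts per library as the limit. KCNK4, KCNK6, KCNK7, KCNK13, KCNK15 and KCNK17 had at most 10 counts in any library. Of the exon bases of KCNK4, 61.9% overlap KCNK4-TEX40 on its own strand, and 21.7% of those of KCNK15 lie opposite other genes. Both counts are uncertain.

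**Figure D3:**
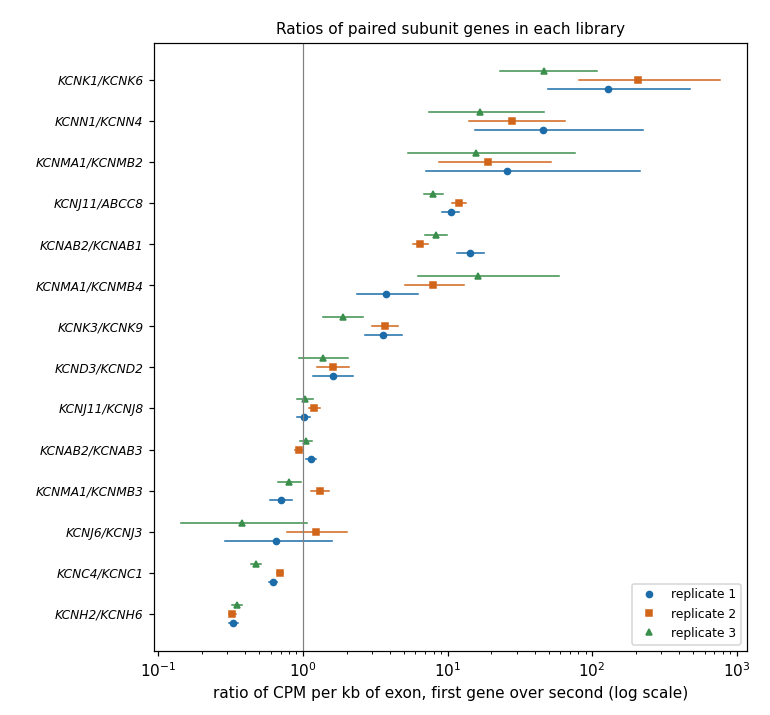
Ratio of CPM per kb of exon, first gene over second (horizontal axis, log scale), for 14 of the 17 fixed pairs of subunit genes with counts of both genes in every library (vertical axis). Symbols are the 3 libraries and bars exact 95% binomial intervals. The first gene was the higher in every library in 9 of the pairs plotted, a number that depends on which gene was written first. KCNH2/KCNH6 and KCNC4/KCNC1 lie left of 1 throughout.

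Over all 26 fixed pairs, 17 had counts of both genes in every library. In 12 of these the first gene was higher per kb in all 3 libraries, among them KCNJ11 over KCNJ8, whose interval excluded 1 in replicate 2 only. The pairs were written down with earlier results of these data known. The number therefore depends on which gene was put first and is no result about the channels. An exact sign-flip test over 3 libraries cannot go below p = 0.25, so the ratios are given as values with their counting intervals, which do not cover differences between libraries. Some pairs differed between libraries by more than their intervals: KCNAB2 over KCNAB1 was 14.3 (11.6 to 17.8) in replicate 1, 6.49 (5.77 to 7.32) in replicate 2 and 8.31 (6.97 to 9.98) in replicate 3. For KCNH2 over KCNH6 and KCND3 over KCND2 the intervals of the 3 libraries overlapped.

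Of the 53 detected members 37 varied between the libraries beyond counting error (chi-square test of homogeneity, Benjamini-Hochberg adjusted over all detected genes), where 68.7% of all detected genes did. Without replicate 2 the number was 20, against 39.0% of all detected genes. Ranked by the SD of log2 CPM, the top 5 of the 37 were KCNJ6, KCNJ15, KCNJ2, KCNS2 and KCNQ3, all with few counts. KCNJ6 stood at 0.926, 2.6 and 0.501 CPM, high in replicate 2, 5.19 times between its highest and lowest library (chi-square test, adjusted p = 2.48e-11). KCNJ15 stood at 0.765, 1.40 and 0.459 CPM and was also high in replicate 2 (3.06 times, adjusted p = 0.000845). KCNJ2 at 0.966, 0.421 and 1.21 CPM (2.87 times, adjusted p = 0.00185) and KCNS2 at 0.805, 0.351 and 0.960 CPM (2.73 times, adjusted p = 0.00875) were instead low in replicate 2. KCNQ3 stood at 1.81, 1.10 and 0.668 CPM (2.71 times, adjusted p = 0.00181), with replicate 1 high and replicate 3 low.

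Of the 12 members above the median gene, KCNAB3 did not vary beyond counting error (adjusted p = 0.0897). KCNH6, KCNQ5, KCNH5, KCNH2, KCNAB2 and KCNK5 passed the same test with highest and lowest CPM only 1.15, 1.15, 1.13, 1.14, 1.16 and 1.19 times apart. KCNH3, KCNJ11, KCNJ8 and KCNB2 differed more, by 1.39, 1.35, 1.37 and 1.46 times, with replicate 2 high for KCNH3 and replicate 1 high for the others. Lower down, KCNK3 stood at 8.33, 9.62 and 4.67 CPM (2.06 times, adjusted p = 1.97e-10), with replicate 3 low. No common order of the libraries ran through the 37 genes: replicate 1 was the highest in 16, replicate 2 in 13 and replicate 3 in 8, against 29.7%, 37.5% and 32.8% of all genes that varied. The median SD of log2 CPM was 0.24 over detected members and 0.17 over all detected genes. This SD includes counting error, which is larger at low counts, and members were not compared with genes of like count.

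**Figure D4:**
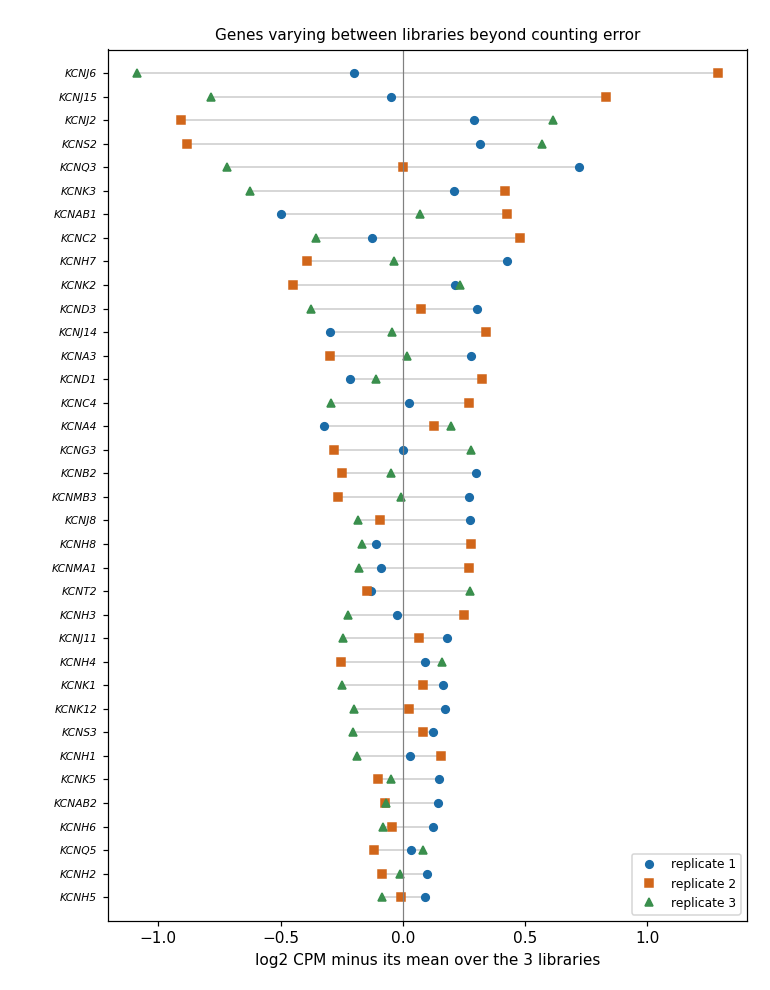
Log2 CPM in each library minus the mean over the 3 libraries (horizontal axis) for 36 of the 37 detected potassium channel subunit genes that varied beyond counting error (vertical axis, ordered by SD of log2 CPM). KCNJ6 and KCNJ15 at the top are high in replicate 2, KCNJ2 and KCNS2 low in it, and the genes at the bottom, among them KCNH5 and KCNH2, differ little.

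Of the 42 members not detected, 11 had no count in any library, 19 had at most 9 counts in any library and 12 reached 10 counts in at least 1. A gene with no count could still have a level of up to 0.121 CPM in replicate 1, 0.0702 in replicate 2 and 0.125 in replicate 3, which is what 3 counts are worth there, for counting error only. Among those with no count were KCNA1, KCNA6, KCNA10, KCNIP1, KCNJ1, KCNJ18, KCNK10, KCNK16, KCNK18 and KCNMB1. No count was seen for 20.1% of all genes.

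Genes that work with these channels but fall outside the naming rule were read from 3 further lists. Of 12 channel partners 7 were detected, 1 above and 6 below the median gene. LRRC55, a gamma subunit of BK channels, lay above it at 7.72 ± 0.853 CPM per kb, while the other gamma subunit genes LRRC26 and LRRC38 had no count and LRRC52 had at most 3. DPP10, a partner of KCND channels, stood at 2.44 ± 0.212 CPM per kb and its paralog DPP6 had no count. AMIGO1, a partner of delayed rectifier channels, stood at 2.71 ± 0.486 CPM per kb, CNTNAP2, which gathers KCNA channels along axons, at 0.855 ± 0.0848 CPM per kb and KCNRG, a regulator of Kv assembly, at 0.509 ± 0.240 CPM per kb. LGI1 had at most 7 counts. ABCC8 and ABCC9, given above, lay below the median gene.

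Of 7 other potassium-permeable channel genes 6 were detected, 2 above and 4 below. The intracellular cation channel genes TMEM38B (13.0 ± 0.748 CPM per kb) and TMEM38A (11.1 ± 2.58 CPM per kb) lay above the median gene, and the lysosomal channel gene TMEM175 (1.28 ± 0.483 CPM per kb) and the pacemaker channel genes HCN3 (3.35 ± 0.729 CPM per kb) and HCN2 (0.491 ± 0.102 CPM per kb) below, while HCN4 had 15, 22 and 8 counts. Of 14 potassium pump and cotransporter genes 11 were detected, 6 above, 4 below and 1 not distinguished. The beta subunit genes of the sodium-potassium pump lay above, ATP1B3 at 47.0 ± 2.71 CPM per kb, ATP1B2 at 29.4 ± 4.80 CPM per kb and ATP1B1 at 12.6 ± 0.994 CPM per kb. The cotransporter gene SLC12A2 (12.4 ± 1.29 CPM per kb) was also above, SLC12A4 (6.13 ± 1.58 CPM per kb) was not distinguished, and the neuronal SLC12A5 (0.727 ± 0.103 CPM per kb), SLC12A1 (0.0900 ± 0.0454 CPM per kb) and the pump gene ATP1A4 (0.150 ± 0.0221 CPM per kb) were below. No counts were seen for SLC12A3 and SLC12A7. The median distance from the median gene was 1.16 on the log2 scale over the detected pump and cotransporter genes and -1.92 over the detected channel subunit genes.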

How the data were processed

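Raw read counts per gene symbol were deposited by the authors as 1 table with a column for each of the 3 libraries, matched by title. The submitters' processing notes list STAR 2.6.1b and hg38 without saying what each was used for. For the counting program, its annotation and the use of strand, nothing is given in the sources used here. Of 27587 names 13 had been turned into dates and were left out (0.0665%, 0.0707% and 0.0736% of counts), which leaves 27574.

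CPM used effective library sizes from edgeR 4.0.16 (TMM factors 0.993, 1.00 and 1.00). Exon length (the union of exons), position and overlap came from GENCODE 29 on GRCh38, the assembly that hg38 names; all 95 members matched by symbol, as did 19590 of all genes, with 487 more through an older symbol. The labels give 1 group and no contrast, so no test between groups was made. Levels were tested with limma 3.58.1 (limma-trend, R 4.3.3; two-sided, log2 CPM with a prior count of 2, minus log2 kb, minus the library's median over detected genes), with Benjamini-Hochberg adjustment and a threshold of 0.05. Both tests were tried on simulated counts. The limma test called 5.5% of genes set at the median gene, and 92% and 95.5% of those set 0.5 log2 above and below it. The chi-square test called 0.174% of unchanged genes, in a simulation where 13330 of 13530 genes were unchanged. In the data 68.7% of detected genes were called, so that rate is not the share of false calls in the data. The simulated counts for the chi-square test were drawn with counting error only, so its behaviour under other variation between libraries was not tested. Some genes and sequences enter the counts and sums but are not reported here. Every other member may be named: detected members with values, the 3 highest per kb and the lowest detected of each role list in full, the 5 widest by SD of log2 CPM of those that varied, pair members, others by counts, and detected partner genes. The members, lists and pairs were chosen with earlier results of these data known. Alternatives were each library left out, DESeq2 1.42.0 size factors, plain totals, 2 count filters, a prior count of 0.5, limma-voom, an edgeR quasi-likelihood F test with offsets, the longest transcript as length, no division by length, a median over protein-coding genes, and a stricter chi-square threshold (0.01). Reads carry no stated molecular identifiers, so intervals and floors cover counting error only.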

Additional observations from a re-analysis of the deposited data

How the results depend on the processing

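The counts of members above (12) and below (40) the median gene, and the call of each member, were the same under limma-voom, the edgeR quasi-likelihood test, a prior count of 0.5, DESeq2 size factors, unscaled column totals and a median over protein-coding genes. With at least 1 CPM in every library 43 members were tested and 7 lay above; with at least 1 count in any library 84 counted as detected and 61 lay below. Leaving out 1 library gave 11 to 12 above, 39 to 42 below, 53 to 57 detected, 20 to 29 varying beyond counting error (20 without replicate 2, against 37) and 12 to 13 pairs with the first gene higher. The number of pairs depends on which gene was written first. Of the 53 detected members, 45 kept their call without division by length and 48 with the longest transcript as length. Distances on the log2 scale changed sign without division by length (KCNB2 -0.037, KCNJ8 -0.35, KCNT2 0.15, KCNC1 1.42, KCNC4 1.45), with the longest transcript as length (KCNK5 -0.062, KCNB2 -0.15, KCNC1 0.15) and with any gene counted (KCNK1 0.036, KCNK2 0.25, KCNT2 0.42, KCNS3 0.60, KCNC1 0.67, KCNA4 0.88), which adds genes of low count. The counts of these members were the same in all these settings, which differ in the length used or in the genes that set the median. No further cause was tested. On counts, without division by length, 3 mean pair ratios crossed 1: KCNC4 to KCNC1 became 1.04, KCNMA1 to KCNMB3 3.73 and KCNJ6 to KCNJ3 2.96. No paired analysis was possible because the labels form 1 group. Depth limits the members with under 10 counts, whose ratios rest on few counts.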

Other observations

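KCNJ6 and KCNJ15, the detected members with the largest SD of log2 CPM, lie on chromosome 21, as do KCNE1 and KCNE2, and all 4 had higher log2 CPM in replicate 2 than the mean of replicates 1 and 3, by 1.83, 1.15, 0.35 and 1.61. This set was chosen after its values were seen, and KCNE1 and KCNE2 had fewer than 10 counts in at least 1 library. Over the 124 detected genes of chromosome 21 the median of the same difference was -0.02, and replicate 2 was the highest library in 38.7% of them, against 36.4% of all 14612 detected genes.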
